A study of Mus musculus with 4 samples.

Results

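The genes described here are 10 activity-induced effector genes, meaning genes that neurons switch on after firing, with the Fos, Jun and Egr transcription factor families set aside. They are the transcription factors Npas4, Nr4a1 and Nr4a2, the regulators Dusp1, Btg2 and Ier2, and the synaptic effectors Arc, Homer1, Nptx2 and Bdnf. All probe sets that the platform's gene table assigns to these symbols alone were kept, which gave 23 of the 45037 probe sets and 10 of the 18193 genes measured. Of the 10 genes, 5 had a single probe set and 5 had several, with 6 each for Homer1 and Nr4a2.

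The arrays measured brain RNA of 4 C57BL/6 mice, all of them males 8 to 9 weeks old and bred from Bcas1 +/- parents. There were 2 wild types (+/+) and 2 homozygous Bcas1 knockouts (-/-). Bcas1 encodes a protein of myelinating oligodendrocytes, and the comparison of genotypes is the only one in the labels. Each mouse gave 1 array, named here wild-type 1 and 2 and knockout 1 and 2 after the labels. The sources used here do not give how the allele was made or whether the mice were littermates.

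Neurons read recent firing out as gene expression. Calcium that enters through glutamate receptors and voltage-gated channels activates kinases, which phosphorylate the factor CREB on its binding site near gene starts, and a set of genes is transcribed within minutes without new protein synthesis. Some of their products are transcription factors or feedback regulators, and others act at the synapse, where they adjust receptor number and connection strength. In an unstimulated brain the level of these RNAs reflects the recent experience of the animal.

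Promoter sequences bear on the 10 genes because CREB binds the letters TGACG, and strongest their palindromic extension TGACGTCA. RefSeq entries on build GRCm38.p6 covered 7 of the 10 genes with 14 start sites, namely Npas4, Bdnf, Homer1, Dusp1, Nr4a1, Nr4a2 and Btg2. In the 250 bases upstream of the start, read on both strands, each of the 7 genes held TGACG at 1 or more starts, in 7 of the 14 windows. Over all promoters of the table, 17.8% of 32851 windows and 19.8% of 27025 genes held it. The full TGACGTCA, which contains TGACG on both strands, was found in 1.55% of all windows and, among the 7 genes, upstream of Dusp1 and Btg2. A match describes letters in a window, and no binding was measured in this series. The 5 windows below show the palindrome (Dusp1, Btg2), repeated copies (Nr4a1, Npas4) and the single copy found at the 7 Bdnf starts, with TGACG or its reverse complement in capitals and the start site just after the last base.

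Dusp1: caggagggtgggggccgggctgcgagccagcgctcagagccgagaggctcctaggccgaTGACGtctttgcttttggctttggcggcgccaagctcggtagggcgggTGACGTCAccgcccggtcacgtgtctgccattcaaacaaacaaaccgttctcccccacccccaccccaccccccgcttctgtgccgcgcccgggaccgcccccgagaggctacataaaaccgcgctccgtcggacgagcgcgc
Btg2: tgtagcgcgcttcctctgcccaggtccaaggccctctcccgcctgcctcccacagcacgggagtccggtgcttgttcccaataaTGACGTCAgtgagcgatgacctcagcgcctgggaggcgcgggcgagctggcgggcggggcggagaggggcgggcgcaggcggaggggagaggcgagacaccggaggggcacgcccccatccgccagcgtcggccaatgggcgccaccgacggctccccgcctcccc
Nr4a1: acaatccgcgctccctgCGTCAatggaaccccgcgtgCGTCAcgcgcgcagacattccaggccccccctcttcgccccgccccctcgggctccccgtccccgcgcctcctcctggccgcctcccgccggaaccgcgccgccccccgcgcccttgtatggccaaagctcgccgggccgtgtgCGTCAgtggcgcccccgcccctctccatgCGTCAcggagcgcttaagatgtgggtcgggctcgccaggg
Npas4: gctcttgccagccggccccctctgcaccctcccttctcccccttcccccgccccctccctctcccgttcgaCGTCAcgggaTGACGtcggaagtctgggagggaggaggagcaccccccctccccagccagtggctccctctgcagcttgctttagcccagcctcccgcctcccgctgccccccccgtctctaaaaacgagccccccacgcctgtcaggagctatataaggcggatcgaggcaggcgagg
Bdnf, the third start: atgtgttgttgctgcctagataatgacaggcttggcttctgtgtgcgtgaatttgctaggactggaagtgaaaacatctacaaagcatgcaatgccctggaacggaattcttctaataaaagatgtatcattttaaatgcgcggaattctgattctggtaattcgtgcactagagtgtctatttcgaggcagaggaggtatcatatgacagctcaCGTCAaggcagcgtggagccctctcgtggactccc

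In GRCm38.p6 these windows are chr17:26508473-26508722 on the minus strand for Dusp1, chr1:134079156-134079405 on the minus strand for Btg2, chr15:101266596-101266845 on the plus strand for Nr4a1, chr19:4989972-4990221 on the minus strand for Npas4 and chr2:109692186-109692435 on the plus strand for Bdnf. The palindrome began 143 bases upstream of the Dusp1 start and 166 bases upstream of the Btg2 start. Nr4a1 held 4 copies of TGACG and Npas4 held 2, at 179 and 169 bases upstream. The Bdnf copy lay 35 bases upstream of the third start. Of the windows not shown, Nr4a2 held 4 copies and the first Homer1 start held 3, and the second Homer1 start and the 6 other Bdnf starts held none.

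Values below are log2 levels from RMA, so a difference of 1 is a 2-fold change. Array medians were 6.49 to 6.51. The brightest Bcas1 probe set measured 12.17 and 12.21 in the wild-type mice against 11.05 and 10.75 in the knockouts. The dimmer Bcas1 probe sets were higher in both knockout mice, by 0.765 (SE 0.18) and 0.64 (SE 0.15). Whether any of them covers the disrupted sequence was not known here. Knockout 2 stood apart in genes of nasal mucosa, such as Obp1a at 8.92 against 3.41 to 4.15 on the other arrays, and the 5 measured nasal genes averaged 7.48 there against 4.53 to 4.83. Neuron markers were bright on every array, between 8.08 and 14.18. The sample descriptions name the cerebrum, while the 6 cerebellum markers, Gabra6 and Cbln3 of granule cells among them, measured between 10.88 and 12.74.

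Among the 10 genes, 7 had a lower mean in the knockout and 3 a higher mean, and none of the 23 probe sets passed the limma test. The test was two-sided, with p-values adjusted by Benjamini-Hochberg across the whole table, and all 23 had an adjusted p of 1. The same test called 2 of 45037 probe sets, which is 0.00444%. The brightest Bcas1 probe set was not among those called, although its difference was -1.29 (SE 0.12), a 2.45-fold lower level. Its limma p-value was 0.742 after adjustment. A missing call therefore does not show that a gene was unchanged. At an unadjusted p under 0.05 limma gave 1 of the 23, Arc, on the lower side, where 1.61% of all probe sets were lower and 1.82% higher (1.07% of genes lower, by the brightest probe set). The differences ran from -0.28 for Dusp1 to 0.165 for Bdnf, with a median of -0.14 against 0.005 over all genes, of which 45.6% had a negative difference. Without wild-type 1 the median was -0.045, without wild-type 2 it was -0.2125, without knockout 1 it was -0.18 and without knockout 2 it was -0.0425. In bulk tissue, fewer neurons that express a gene and less RNA per neuron cannot be told apart.

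Arc was the gene whose wild-type and knockout mice separated downward. Arc encodes a synaptic protein that drives removal of AMPA receptors and forms capsids from an ancient retroelement. It measured 10.41 and 10.32 in the wild-type mice against 10.16 and 10.13 in the knockouts. Both knockout mice were below both wild-type mice, by more than the distance within either group. The difference was -0.22 (SE 0.075, 95% interval -0.42 to -0.024), a 1.16-fold lower level, with an unadjusted p of 0.0346 and an adjusted p of 1 in limma. Of all genes, 12.8% had both knockout arrays below both wild-type arrays, and 1 of the 10 effector genes did, so the share was near that background. Leaving out any 1 array kept the Arc difference between -0.265 and -0.175.

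**Figure D1:**
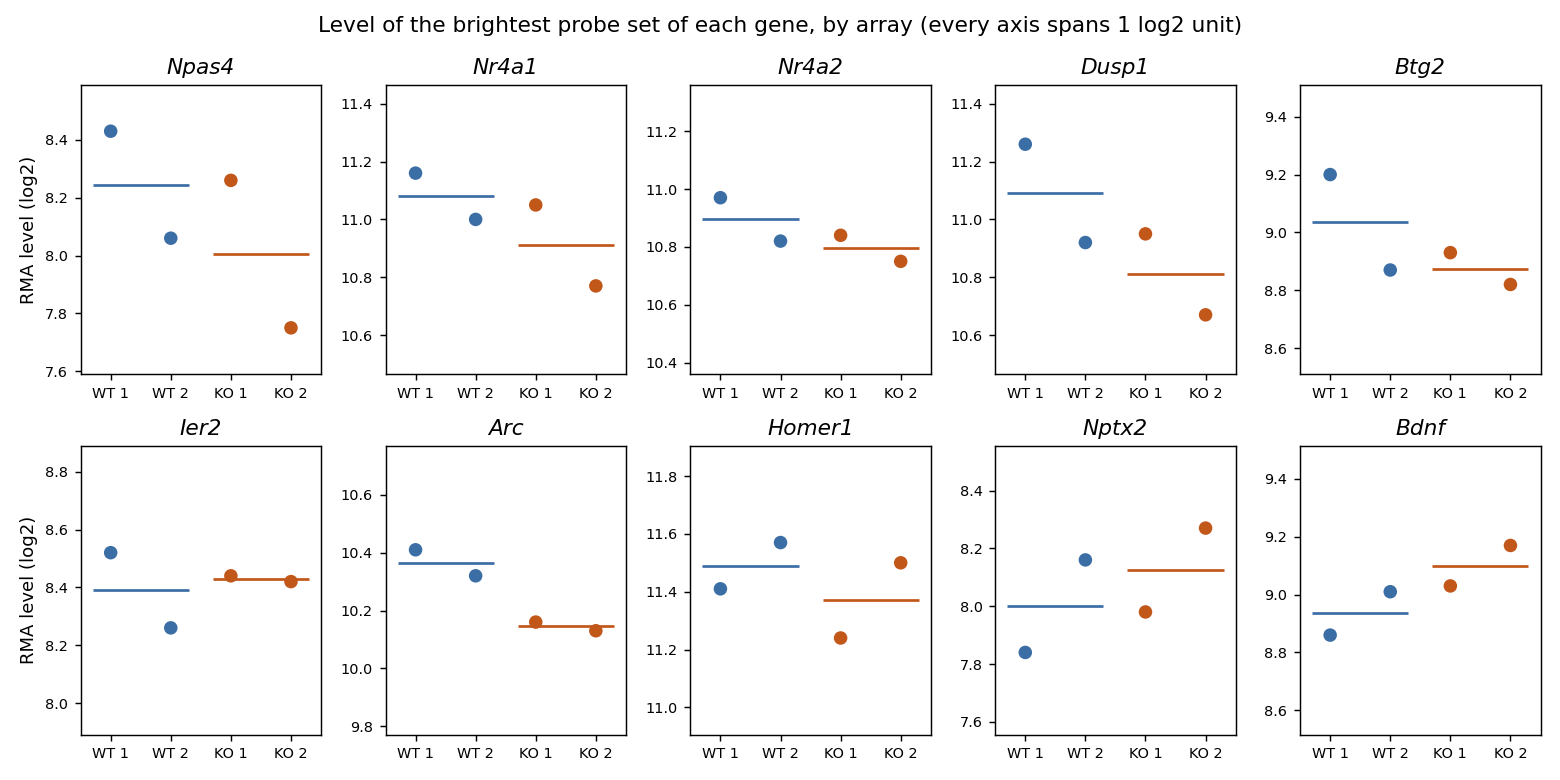
RMA level (log2) of the brightest probe set of each of the 10 genes on wild-type 1 and 2 (WT, blue) and knockout 1 and 2 (KO, orange), with lines at the group means. Every vertical axis spans 1 log2 unit. Arc shows both knockout points below both wild-type points and Bdnf shows both above, while in the other 8 genes the genotypes overlap.

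The 3 transcription factors had lower knockout means, and the genotypes overlapped in the brightest probe set of each. Npas4, a factor induced selectively by calcium entry that controls inhibitory synapses, measured 8.43 and 8.06 in the wild-type mice against 8.26 and 7.75 in the knockouts. Knockout 1 lay between the wild-type mice and knockout 2 lay below all. The difference was -0.24 (SE 0.22, 95% interval -0.80 to 0.32), and without knockout 2 it was 0.015. It was -0.055 without wild-type 1, -0.425 without wild-type 2 and -0.495 without knockout 1. The interval spans both directions, so neither direction was resolved for Npas4.

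Nr4a1 and Nr4a2 encode orphan nuclear receptors that act without a classical ligand. Nr4a1, also called Nur77, measured 11.16 and 11.0 in the wild-type mice against 11.05 and 10.77 in the knockouts. Knockout 1 again lay between the wild-type mice. The difference was -0.17 (SE 0.13, 95% interval -0.50 to 0.16). It was -0.09 without wild-type 1, -0.31 without knockout 1 and -0.03 without knockout 2.

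Nr4a2, also called Nurr1 and required for midbrain dopamine neurons, measured 10.97 and 10.82 in the wild-type mice against 10.84 and 10.75 in the knockouts at its brightest probe set. The difference was -0.10 (SE 0.089). It was -0.025 without wild-type 1, -0.175 without wild-type 2 and -0.055 without knockout 2. In all, 5 of the 6 Nr4a2 probe sets had a negative difference, from -0.13 to -0.035. The probe set at -0.13 (1450749_a_at) measured 9.43 and 9.38 in the wild-type mice against 9.30 and 9.25 in the knockouts, with both knockout mice below both wild-type mice. The sixth (1433423_at) was below the array median and differed by 0.14 (SE 0.17). It read 5.04 in wild-type 1, the array on which 4 of the other Nr4a2 probe sets read highest. The markers of midbrain dopamine neurons, where Nr4a2 is abundant, had a median difference of 0.035 over 6 genes with 0 called. All 6 differences were positive, and 2 of the 6 genes were below the array median.

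Dusp1 and Btg2, which restrain growth signals, also had lower knockout means, and Ier2 did not. Dusp1 encodes a phosphatase that switches off MAP kinases. It measured 11.26 and 10.92 in the wild-type mice against 10.95 and 10.67 in the knockouts. The genotypes overlapped, as knockout 1 lay just above wild-type 2. The difference of -0.28 (SE 0.16, 95% interval -0.69 to 0.13), a 1.21-fold lower level, was the most negative of the 10 genes. Without wild-type 1 it was -0.11, without wild-type 2 -0.45, without knockout 1 -0.42 and without knockout 2 -0.14.

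Btg2 encodes an antiproliferative protein that recruits the CCR4-NOT deadenylase to messenger RNA. Its brightest probe set (1416250_at) measured 9.20 and 8.87 in the wild-type mice against 8.93 and 8.82 in the knockouts. Wild-type 1 stood above the other 3 arrays, which spanned 8.82 to 8.93. The difference was -0.16 (SE 0.13), and it was 0.005 without wild-type 1. The dimmer probe set (1448272_at) measured 8.73 and 8.37 in the wild-type mice against 8.50 and 8.13 in the knockouts, a difference of -0.235 (SE 0.18).

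Ier2 encodes a short-lived nuclear protein induced within minutes. It measured 8.52 and 8.26 in the wild-type mice against 8.44 and 8.42 in the knockouts. Both knockout mice lay inside the wild-type range. The difference was 0.04 (SE 0.11), and without wild-type 2 it was -0.09.

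Of the remaining synaptic effectors, Bdnf and Nptx2 had a higher knockout mean at their brightest probe set and Homer1 a lower one. Bdnf encodes brain-derived neurotrophic factor, which strengthens synapses through the receptor TrkB. Its brighter probe set (1422168_a_at) measured 8.86 and 9.01 in the wild-type mice against 9.03 and 9.17 in the knockouts. Both knockout mice were above both wild-type mice, although knockout 1 and wild-type 2 were close. The difference was 0.165 (SE 0.096, 95% interval -0.085 to 0.41) with an adjusted p of 1 in limma. Of all genes, 15.5% had both knockout arrays above both wild-type arrays, and among the 10 effector genes Bdnf was the 1 that did. Without wild-type 1 the difference was 0.09 and without knockout 2 it was 0.095.

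The other Bdnf probe set (1422169_a_at) measured 8.16 and 8.39 in the wild-type mice against 8.31 and 8.60 in the knockouts. Here knockout 1 lay between the wild-type mice. The difference was 0.18 (SE 0.14). The probe sets do not report which of the Bdnf start sites was used.

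Nptx2 encodes a secreted pentraxin, also called Narp, that clusters AMPA receptors on interneurons. Its brighter probe set measured 7.84 and 8.16 in the wild-type mice against 7.98 and 8.27 in the knockouts. The genotypes alternated along the scale, with wild-type 1 lowest and knockout 2 highest. The difference was 0.125 (SE 0.16), and it turned to -0.035 without wild-type 1 and to -0.02 without knockout 2. The dimmer probe set (1449960_at) was below the array median and differed by -0.01 (SE 0.16).

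Homer1 encodes a postsynaptic scaffold that links group I metabotropic glutamate receptors to calcium stores, and firing switches it to a short form that breaks these links. Its brightest probe set (1437363_at) measured 11.41 and 11.57 in the wild-type mice against 11.24 and 11.50 in the knockouts, a difference of -0.12 (SE 0.12). The genotypes overlapped, and without knockout 1 the difference was 0.01. A second bright probe set (1436387_at) measured 10.52 and 11.21 in the wild-type mice against 10.56 and 11.21 in the knockouts. Its genotype difference was 0.02 (SE 0.32), while the mice within each genotype differed by far more than that.

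In all 6 Homer1 probe sets the arrays numbered 1 were the lower pair and those numbered 2 the higher pair, whatever the genotype. The same order held in both Nptx2 probe sets, in 1 of the 2 Bdnf probe sets and in 1 dim Nr4a2 probe set, 10 of the 23 in all, and in 22.3% of all probe sets. The opposite order, with both arrays numbered 1 above both numbered 2, held in 9 of the 23, and in 16.3% of all probe sets. It was the order of the brightest probe sets of Npas4, Nr4a1, Nr4a2, Dusp1, Btg2 and Ier2. The 6 Homer1 probe sets read 1 gene and are not independent, and these orders were described after the values were seen. The dim Homer1 probe set (1425671_at) had the widest spread, with 4.26 and 4.70 in the wild-type mice against 3.85 and 4.69 in the knockouts. The labels do not say what the numbers stand for beyond the mouse. No probe set was assigned here to the short or the long Homer1 form.

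**Figure D2:**
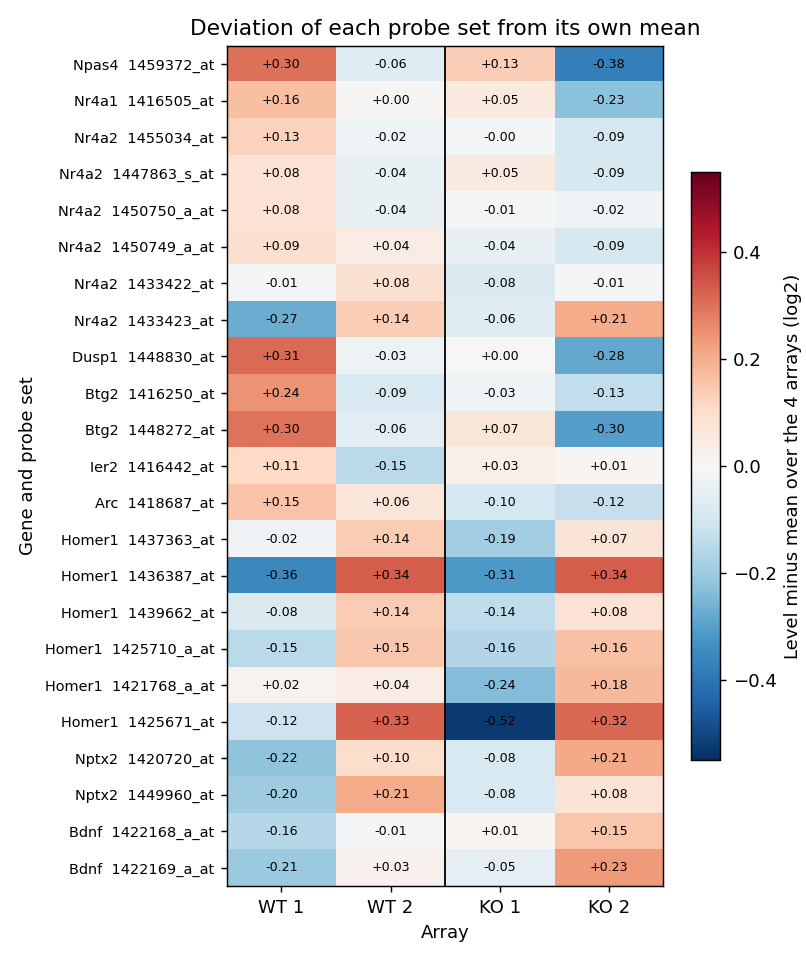
Deviation of each of the 23 probe sets from its own mean over the 4 arrays (log2, colour and printed value), with arrays in columns and the genotypes parted by the black line. Npas4, Dusp1, Btg2 and Nr4a1 are highest in WT 1 and lowest in KO 2, and the Homer1 rows are higher in the arrays numbered 2 of both genotypes.

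Across arrays, 6 of the 10 genes had their highest level in wild-type 1 and their lowest in knockout 2, namely Arc, Npas4, Dusp1, Nr4a1, Nr4a2 and Btg2. Of all genes, 5.36% had that order. Bdnf and Nptx2 had the opposite order, lowest in wild-type 1 and highest in knockout 2, as had 11.8% of all genes. These orders were chosen after the values were seen, and with a single array at each end genotype and mouse cannot be told apart in them. Knockout 2 is also the array with the nasal transcripts, and their part in the result was not tested. The mean over the 10 genes was 9.81 and 9.70 in the wild-type mice against 9.69 and 9.63 in the knockouts, so knockout 1 was close to wild-type 2.

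**Figure D3:**
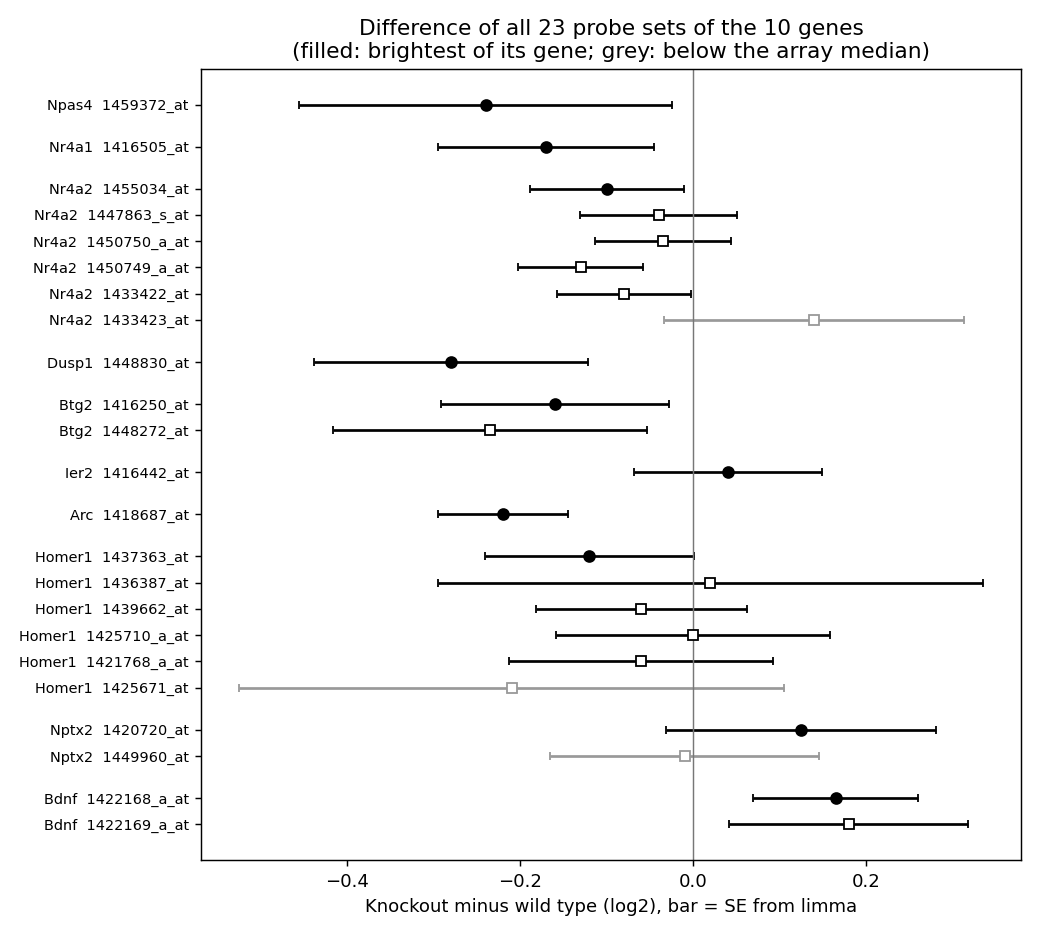
Knockout minus wild type (log2) with its limma SE for all 23 probe sets, grouped by gene, where filled circles mark the brightest probe set of a gene, open squares the others and grey symbols the 3 that lie below the array median. Most bars reach or lie close to 0, Arc sits at -0.22 and both Bdnf probe sets lie above 0.

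Probe sets of 1 gene agreed in sign for Btg2 and Bdnf and split for Homer1, Nr4a2 and Nptx2. Over all 23 probe sets, 16 had a negative difference, 6 a positive one and 1 a difference of 0, with a median of -0.06. Homer1 gave 4 of the 16 and Nr4a2 gave 5. By the brightest probe set, 45.6% of all genes had a negative difference. Both knockout arrays were below both wild-type arrays in 2 probe sets, where 13.2% of all probe sets were, and above in 1, where 13.9% were. The SE ran from 0.072 to 0.32, so changes of the sizes seen here were not resolved for most of these genes with 2 mice a group.

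Other genes of the same response had medians nearer to 0. The Fos, Jun and Egr families, 11 genes measured, had 8 negative and 2 positive differences, a median of -0.065 and 0 calls in limma, with 0 at an unadjusted p under 0.05. Fos measured 11.97 and 11.68 in wild type and 11.58 in both knockout mice, a difference of -0.245 (SE 0.12). Junb, its partner in the AP-1 factor, differed by -0.19 (SE 0.11). In both genes the knockout mice lay below the wild-type mice, in Junb only narrowly, with knockout 1 at 7.89 and wild-type 2 at 7.90. These were 2 of the 11 genes, near the background of 12.8% of all genes with that order.

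Of 35 further activity-induced genes, 34 were measured, with 21 negative and 12 positive differences and a median of -0.0275. None was called by limma, and 0 had an unadjusted p under 0.05. The smallest p values belonged to Nfil3, a transcriptional repressor, at 0.21 (SE 0.11), Pcdh8, a protocadherin of synapses, at -0.13 (SE 0.072), Ccn1, a matrix protein, at -0.26 (SE 0.15), and Maff, a small Maf factor, at 0.13 (SE 0.080). Among these genes values therefore lay on both sides of 0.

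The machinery that carries calcium signals to the nucleus was also measured. Of 29 such genes, 25 were measured, with 15 negative and 8 positive differences, 6 genes with both knockout mice below both wild-type mice and 2 with both above (12.8% and 15.5% of all genes), a median of -0.015 and 0 calls in limma (0 at an unadjusted p under 0.05). Camk4, the nuclear calcium kinase that activates CREB, measured 11.86 and 11.76 in the wild-type mice against 11.71 and 11.64 in the knockouts, a difference of -0.135 (SE 0.079). Creb1 itself differed by -0.095 (SE 0.080) and its coactivator Crtc1 by -0.085 (SE 0.082). These 3 are among the 6 that lay below without overlap. Mrtfa, a coactivator of the serum response factor, lay above without overlap, at 8.2 and 8.24 in wild type and 8.31 in both knockout mice, a difference of 0.09 (SE 0.070).

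Receptors and partners of the effector genes had a median difference of 0.015 over 21 measured of 25, with 7 negative, 13 positive and 0 called by limma (0 at an unadjusted p under 0.05). Gria4, an AMPA receptor subunit that Nptx2 clusters, differed by -0.11 (SE 0.076), and Homer3, a relative of Homer1, by -0.095 (SE 0.078). Sh3gl3, an endophilin that binds Arc, differed by 0.085 (SE 0.071).

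**Figure D4:**
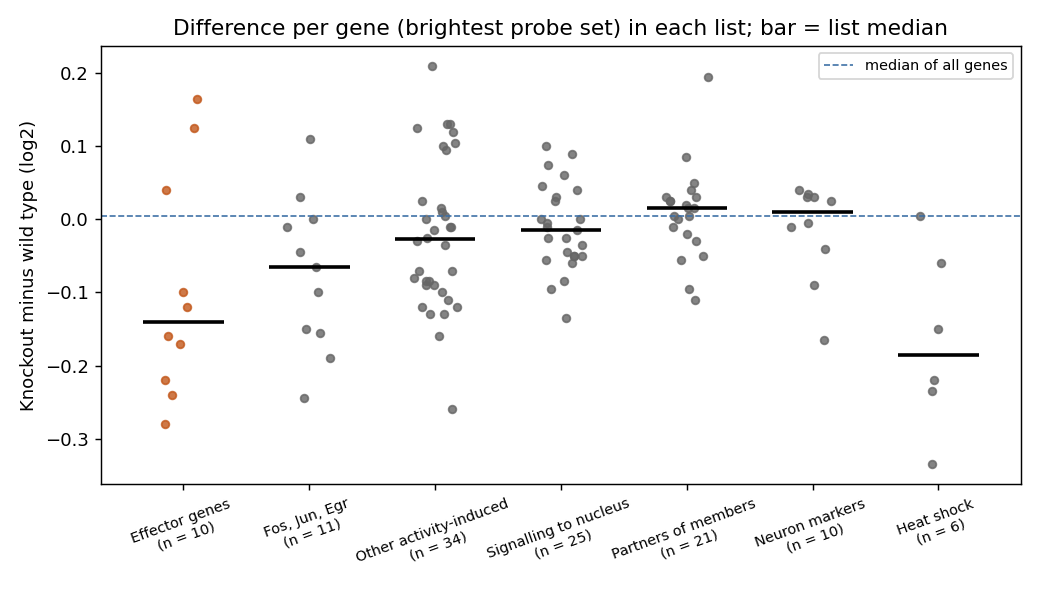
Knockout minus wild type (log2) for each measured gene of 7 lists, by the brightest probe set, with the list median as a black bar and the median of all genes (0.005) as a dashed line. The 10 effector genes (orange) have a median of -0.14 and span -0.28 to 0.165, and the neuron markers have a median of 0.010.

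Neuron markers had a median difference of 0.010. The median was -0.06 for cortex and hippocampus markers, close to the -0.055 of thalamus and of cerebellum markers and the -0.05 of microglia markers. Heat shock genes also had a negative median. The mean level of the 10 neuron markers was 11.63 and 11.65 in the wild-type mice against 11.65 and 11.60 in the knockouts, with 5 negative and 5 positive differences. Neurod6 and Slc17a7, of excitatory neurons, differed by -0.165 (SE 0.077) and -0.09 (SE 0.074). Slc17a6, also of excitatory neurons, differed by 0.04 (SE 0.074). The 7 measured cortex and hippocampus markers averaged 9.00 and 8.95 in the wild-type mice against 9.01 and 8.79 in the knockouts, with Rorb at -0.22 (SE 0.098). Knockout 2, where 6 of the effector genes were lowest, was thus also lowest in these markers, and their part in the result was not tested.

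The 6 striatum markers measured had a median of 0.0625 and averaged 9.42 and 9.38 in the wild-type mice against 9.43 and 9.51 in the knockouts. Thalamus and cerebellum markers had medians of -0.055 each. The 6 heat shock genes, induced by protein stress, had a median of -0.185 and averaged 10.89 and 10.81 in the wild-type mice against 10.56 and 10.80 in the knockouts. None was called by limma, and 1 had an unadjusted p under 0.05, Dnajb1 at -0.235 (SE 0.079), with both knockout mice below both wild-type mice as in Arc. Dnajb1 was the 1 gene of the 6 with that order, which 12.8% of all genes had. The lowest array of the list mean was knockout 1, as for Homer1, while 6 effector genes were lowest in knockout 2, and the part of heat shock genes in the result was not tested.

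Astrocyte, oligodendrocyte, microglia and endothelial markers had medians of 0.010, 0.060, -0.050 and 0.055, with 0 called by limma and 0 at an unadjusted p under 0.05 in each list. The 6 blood cell markers had a median of 0.365, and 5 of them were below the array median. S100a8 measured 5.6 and 5.44 in the wild-type mice against 6.36 and 7.02 in the knockouts. Alas2 and Hba-a1 of the same list differed by 0.075 (SE 0.19) and 0.01 (SE 0.19). In limma 0 of the 6 were called and 3 were higher at an unadjusted p under 0.05. Both knockout mice were above both wild-type mice in 4, as in 15.5% of all genes. The 6 pituitary hormone genes had a median of 0.0875, and 4 of them were below the array median. In limma 0 were called and 1 had an unadjusted p under 0.05, Gh at 0.71 (SE 0.22). The list means were highest in knockout 2 for blood, at 6.57 against 5.70 to 6.11 elsewhere, and for the pituitary, at 6.34 against 5.97 to 6.07. In the pituitary list Gh read 7.53 in knockout 2 against 6.44 to 6.88 elsewhere, while Tshb was lowest there, at 5.44.

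The genes with the array pattern nearest to the mean of the 10 were Hopx, 2410006H16Rik, Hook1, Tiam1 and Ube2b. Likeness was the Euclidean distance between the 4 mean-centred values, over 9081 genes above the median level, and these 5 lay at 0.00316 to 0.0136 where the median distance was 0.173. Hopx measured 11.58 and 11.47 in the wild-type mice against 11.46 and 11.40 in the knockouts, a difference of -0.095 (SE 0.080). The mean pattern ran from 0.1015 in wild-type 1 to -0.0795 in knockout 2, around its own mean. It averages genes that differ, as Npas4 ran from 0.305 to -0.375 and Bdnf from -0.1575 to 0.1525 on these arrays. Nearness to the mean is therefore not likeness to each of the 10 genes.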

How the data were processed

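The deposited log2 values came from RMA, which the submitters' processing notes name, with no software or settings given in the sources used here. Per the labels' protocols, biotin-labelled RNA was made from 100 ng of total RNA by a kit primed at the 3' end, 1 array per mouse. No detection calls or scanner files were used. Precision is limited by having 4 arrays. The 64 control probe sets were left out of 45101. Of the rest, 34945 named 1 gene, 932 several and 9160 none, and 0 symbols changed through the RefSeq table of GRCm38.p6. The brightest probe set stood for a gene. Genotypes were compared by lmFit and eBayes of limma 3.58.1 under R 4.3.3, with 2 residual and 2.74 prior degrees of freedom, adjusted over all probe sets at a threshold of 0.05, and the script was tested on simulated data. With 2 arrays a group, an exact two-sided permutation p is at least 0.333. All 10 genes were named, and in other lists at most the 4 genes with the smallest p, apart from Bcas1 and genes that mark an array or the tissue. Genes, lists and tests were chosen with earlier results of these data known. The alternatives were 2 scalings, a filter on dim probe sets, another variance model, the mouse number as a block, leaving out each array and 2 other choices of probe set.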

Additional observations from a re-analysis of the deposited data

How the results depend on the processing

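No member probe set and no gene of the other lists passed under any alternative in which they were tested. The lowest adjusted p of a member gene was 0.573 in limma. Over 109 single-gene values, 103 kept their direction. The other variance model, the block, the dim filter and the plain _at choice left each difference given there unchanged. Those values could not turn, so the 103 overstate how stable the directions are. All 6 turns came from leaving out 1 array. The 6 that turned were Btg2 (0.005) and Nptx2 (-0.035) without wild-type 1, Ier2 (-0.09) without wild-type 2, Homer1 (0.01) without knockout 1, and Npas4 (0.015) and Nptx2 (-0.02) without knockout 2. Leaving out 1 array gave ranges of -0.325 to 0.005 for Btg2, -0.035 to 0.285 for Nptx2, -0.09 to 0.17 for Ier2, -0.25 to 0.01 for Homer1 and -0.495 to 0.015 for Npas4. The median of the 10 genes ranged from -0.2125 to -0.0425. The count of genes with the knockout below the wild type without overlap, 1 with all arrays, ranged from 2 to 7 when 1 array was left out. Fewer arrays make separation easier. The share over all genes was not computed for the reduced arrays, so these counts have no background and are not read as a result. The count was 2 with the mean over all probe sets of a gene, where Nr4a2 joined Arc with a difference of -0.0408. For that choice too the share over all genes was not computed. Bdnf has no plain _at probe set, so that choice gave no value for it. With the replicate number as a block, 0 member probe sets were called by limma. Knockout minus wild type within the numbers was negative at both numbers in 7 genes and positive at both in 2. The share over all genes was not computed for this order, so the counts have no background. Same-numbered arrays deviated together with a correlation of 0.241 across 45037 probe sets and 0.132 across the brightest probe sets of 18193 genes, features that are not independent, and the labels do not pair the mice. The alternatives for the other lists were chosen after seeing the data.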
